A study of Sus scrofa with 8 samples.

Results

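Cytosolic ribosomal protein genes encode the protein subunits of the ribosome that translates nuclear-encoded mRNAs. Their level was described here in porcine induced pluripotent stem cells (piPSCs) with and without overexpression of the transcription factor IRF-1. Members were taken by symbol: rows of the count table whose pig Ensembl symbol is RPL or RPS with a number, a P stalk name (RPLP0, RPLP1, RPLP2) or RPSA, leaving out the S6 kinases. The pattern allows 1 letter (A, X or L) and 1 more digit after the number, so RPL36AL is not a member. The rule found 50 members among 24358 rows, of which 14692 carry a symbol. A further 26 ribosomal protein genes, whose rows carry no symbol, were placed by their RefSeq position on the same assembly, Sscrofa11.1, and are given separately. The members lie on 15 chromosomes, with 8 on chromosome 1 and 6 on chromosome 6. RefSeq names 6 more such genes (RPL9, RPL12, RPL18, RPL35A, RPL36 and RPS27) that could not be tied to a single row and are not analysed here.

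The ribosome joins a small subunit, which reads the mRNA, with a large subunit, which forms the peptide bond. Their mRNAs are short, abundant and begin with a pyrimidine tract, through which mTORC1 signaling and LARP1 set their translation together. The proteins are made in nearly equal numbers and assembled with rRNA in the nucleolus, and pluripotent cells are known for active ribosome production.

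The study asked what IRF-1 does to the pluripotency of pig cells. The cells were DOX-hLIF-2i piPSCs from domestic pig, reprogrammed from embryonic fibroblasts with doxycycline-inducible OSKM factors that they still express. Cells of the overexpression group (DW.1 and DW.3) received PB-CAG-IRF1-Flag, a piggyBac vector with IRF1 under the constitutive CAG promoter, and cells of the control group (DW.6 and DW.8) received the empty PB-CAG-Flag vector, both with puromycin selection. The growth label names an LCDMV culture system, and whether this is the doxycycline, LIF and inhibitor medium of the study's methods is not given in the sources used here. Feeder cells were removed by letting them attach before RNA was extracted, and oligo(dT) libraries were made. GEO labels the genotype of all 4 RNA-seq libraries as overexpression, so the split follows the study's own assignment of its libraries by name, not that label. Total counts were 24923319 in DW.1, 20858333 in DW.3, 15925429 in DW.6 and 17097669 in DW.8. Nothing states that the 2 libraries of a group came from separate cultures, so p-values measure the spread between these libraries, which may be technical.

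The introduced gene was examined first. IRF1 had 330 CPM (read counts scaled to a common library size by library total and TMM factor) in DW.1 and 264 in DW.3, against 3.52 in DW.6 and 3.2 in DW.8. The libraries labelled DW.1 and DW.3 thus held high IRF1 and the groups did not overlap, with a log2 fold change of 6.46 ± 0.21 (SE) and an adjusted p = 3.65e-05 (edgeR quasi-likelihood test, p-values adjusted by the Benjamini-Hochberg method over all genes tested, 2 libraries against 2).

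Of 12 pluripotent cell markers 9 had a named row, and their summed level was 1482 CPM in DW.1, 1516 in DW.3, 1733 in DW.6 and 1912 in DW.8. DNMT3B, a DNA methyltransferase, was the most abundant of them, with 1034, 1005, 694 and 996 CPM in DW.1, DW.3, DW.6 and DW.8. NANOG, a core pluripotency factor, was near 0 in every library, with 8, 11, 5 and 9 counts in the same order. Of 8 tested LIN28A, CDH1 and ESRRB (37.5%) were called lower in the overexpression libraries, ESRRB at 1.25 and 1.78 CPM against 32.1 and 23.0. Of all genes 15.5% were called lower. The fitted log2 fold change was above 0 in 4 of the 8, and 0 were called higher by edgeR, 1 by DESeq2 and 1 by limma-voom. NODAL had 15 and 16.9 CPM against 4.86 and 10.3 and was not called by edgeR (log2 fold change 1.07 ± 0.35 SE, adjusted p = 0.054). Of 14 fibroblast markers, which bear on feeder cells and unconverted cells, 12 had a named row, and their summed level was 146, 92.8, 225 and 118 CPM in DW.1, DW.3, DW.6 and DW.8. COL1A2 had the highest mean of these over the 4 libraries, with 139, 81.2, 64.4 and 39.9 CPM, whereas COL5A1, COL6A3 and LUM had 3 counts or fewer in each library. Of 6 tested fibroblast markers COL1A2 (16.7%) was called higher in the overexpression libraries, beside 13.9% of all genes. Another 4 (66.7%) were called lower, beside 15.5%, among them PDGFRB with 1.13, 2.98, 126 and 55.9 CPM, above COL1A2 in both controls. The part of these markers in the results that follow was not tested, and in such bulk samples fewer cells of a type and less RNA per cell cannot be told apart.

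Control library DW.8 stood apart from DW.6 in the ribosomal protein genes. Of the 46 members that passed the filter on low counts, 39 had a lower CPM in DW.8 than in DW.6, beside 6940 of all 13250 genes tested. Their median log2 difference was -0.27 with an interquartile range of 0.32, beside -0.02 and 0.53 over all genes tested. The overexpression libraries differed far less, with a median log2 difference of 0.03 between DW.3 and DW.1 and an interquartile range of 0.08, beside 0.37 over all genes tested. Within 0.1 log2 units lay 39 of the 46 members for DW.3 against DW.1, and 6 for DW.8 against DW.6. The share of all genes within that window is not given here. Among the 10 members that were lower in DW.8 by 0.5 log2 units or more were RPLP2, RPL37, RPL35 and RPS15, named for this difference after their values were seen. RPLP2 spanned the widest gap, from 1301 CPM in DW.6 to 763 in DW.8. In the other direction 7 members were higher in DW.8, among them RPS3A (1838 against 1975 CPM), RPS4X (2219 against 2304), RPS15A (794 against 835) and RPL7A (2956 against 3011). The difference was thus not shared evenly, and the counts of called members and the share of counts are given with and without each control. Only counts are at hand here, and what set DW.8 apart was not tested.

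**Figure D1:**
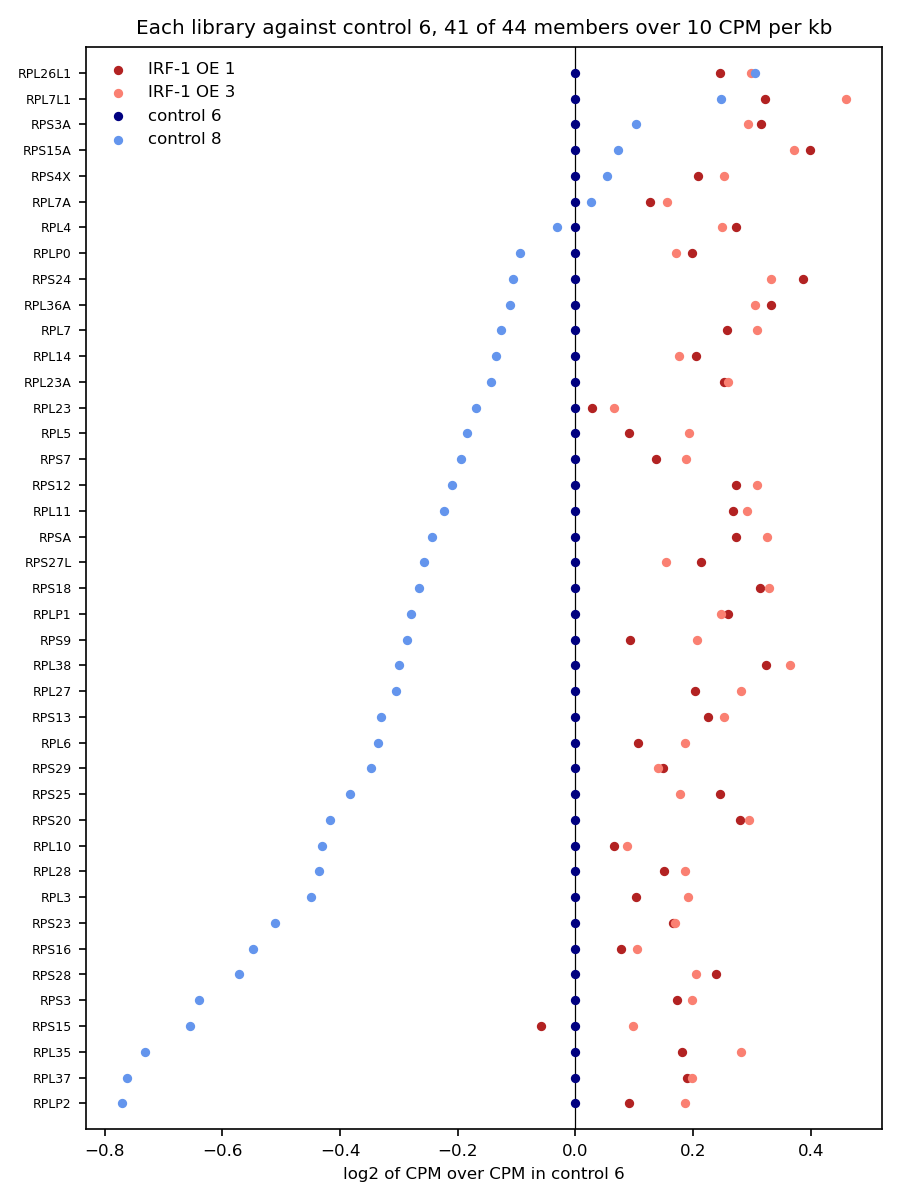
CPM in each library of 41 of the 44 members with a mean over 10 CPM per kilobase, as log2 of the ratio to control DW.6 (x axis, control 6 at 0), ordered by the value in DW.8. Both overexpression libraries lie close together and mostly right of 0, while DW.8 runs from -0.77 for RPLP2 to 0.31 for RPL26L1.

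The members took a larger share of all counts in the overexpression libraries. Their share was 6.77% in DW.1 (exact Clopper-Pearson 95% interval 6.76 to 6.78), 6.92% in DW.3 (6.91 to 6.94), 5.88% in DW.6 (5.86 to 5.89) and 5.11% in DW.8 (5.10 to 5.12), where the intervals cover counting error only. Both overexpression libraries lay above both controls, and the gap between the controls, 0.77 percentage points, was wider than that between the overexpression libraries, 0.151. The group means were 6.85% ± 0.107 (SD, n = 2) and 5.49% ± 0.544 (SD, n = 2), a difference of 1.36 points and a ratio of 1.25. An exact two-sided permutation test gave p = 0.333, the smallest that 2 against 2 libraries can give. Without DW.8 the difference was 0.973 points, and without DW.6 it was 1.74.

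By role, 18 large subunit members held 2.75%, 2.82%, 2.41% and 2.14% of counts in DW.1, DW.3, DW.6 and DW.8. The 24 small subunit members held 3.16%, 3.23%, 2.73% and 2.31% in the same order. The 3 P stalk members held 0.832% in both DW.1 and DW.3, 0.714% in DW.6 and 0.624% in DW.8. The ratio of group means was 1.23 for the large subunit, 1.24 for the P stalk and 1.27 for the small subunit, and the order of libraries was the same in the small and large subunit. The 37 genes of the mitochondrial genome also took more counts in the overexpression libraries, 8.62% and 7.57% against 6.29% and 6.68%, and with them left out of the totals the members' difference was 1.58 points.

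**Figure D2:**
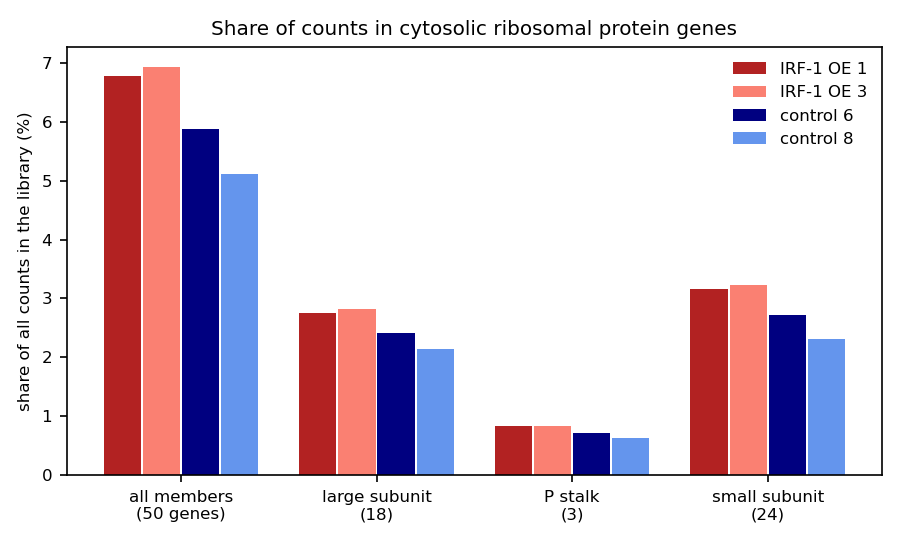
Share of all counts in each library (y axis, %) held by all 50 members and by the large subunit, P stalk and small subunit members, 1 bar per library. In each set both overexpression libraries are above both controls, and DW.8 is the lowest library.

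In the fit over 13250 tested genes, 4 of the 46 tested members were called higher in the overexpression group (adjusted p under 0.05), or 8.70%, beside 13.9% of all genes tested. None was called lower, beside 15.5% of all genes. At an unadjusted p under 0.05 edgeR gave 21 members higher and 0 lower, DESeq2 24 and 0, and limma-voom 25 and 0, beside 19.5%, 13.7% and 20% of all genes higher and 21.2%, 14.4% and 21.1% lower. DESeq2 keeps its own set of genes, so its shares of all genes are not taken over the 13250. With a log2 fold change of at least 1 also asked for, 0 members were called in either direction by edgeR, beside 8.61% of all genes called higher and 10.6% called lower. In this fit the share of called members was thus below that of the whole table in each direction, which did not hold for the higher calls under every other setting (below).

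The direction was nearly uniform while the size was small. The fitted log2 fold change was above 0 in 45 of 46 tested members, beside 49.9% of all genes tested, and the exception was RPL3L, also under the other 4 scalings tried. Both overexpression libraries were above both controls in 41 of 46 members, beside 34.8% of all genes, and below both in 1, beside 33.8%. The median log2 fold change was 0.35 with an interquartile range of 0.15 and an SD of 0.22 across members, beside a median of 0.00, an interquartile range of 0.81 and an SD of 1.31 over all genes tested. The adjusted p was under 0.1 in 18 of the 46 members, so 14 lay between 0.05 and 0.1. The share of all genes under 0.1 is not given here, so this count cannot be set against the whole table.

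The calls depended on single libraries. Without control DW.6, 36 members (78.3%) were called higher, beside 14.8% of all genes, and the median was 0.50. Without control DW.8, 5 (10.9%) were called, beside 15.3%, and the median was 0.23, with 43 of 46 above 0. Without DW.1 or without DW.3, 0 members were called by edgeR, beside 6.35% and 9.80% of all genes, at medians of 0.37 and 0.34. At an unadjusted p under 0.05 there were then 4 and 1, beside 12.3% and 15.2%. In these fits the lone library of a group is assumed to vary like the other group. With no filter on low counts 24 members (51.1%) were called higher, beside 12.9% of all genes, and with library totals alone 7 (15.2%) beside 13.5%. With DESeq2 or limma-voom 7 each (15.2%) were called, beside 13% and 14%, always with 0 lower.

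**Figure D3:**
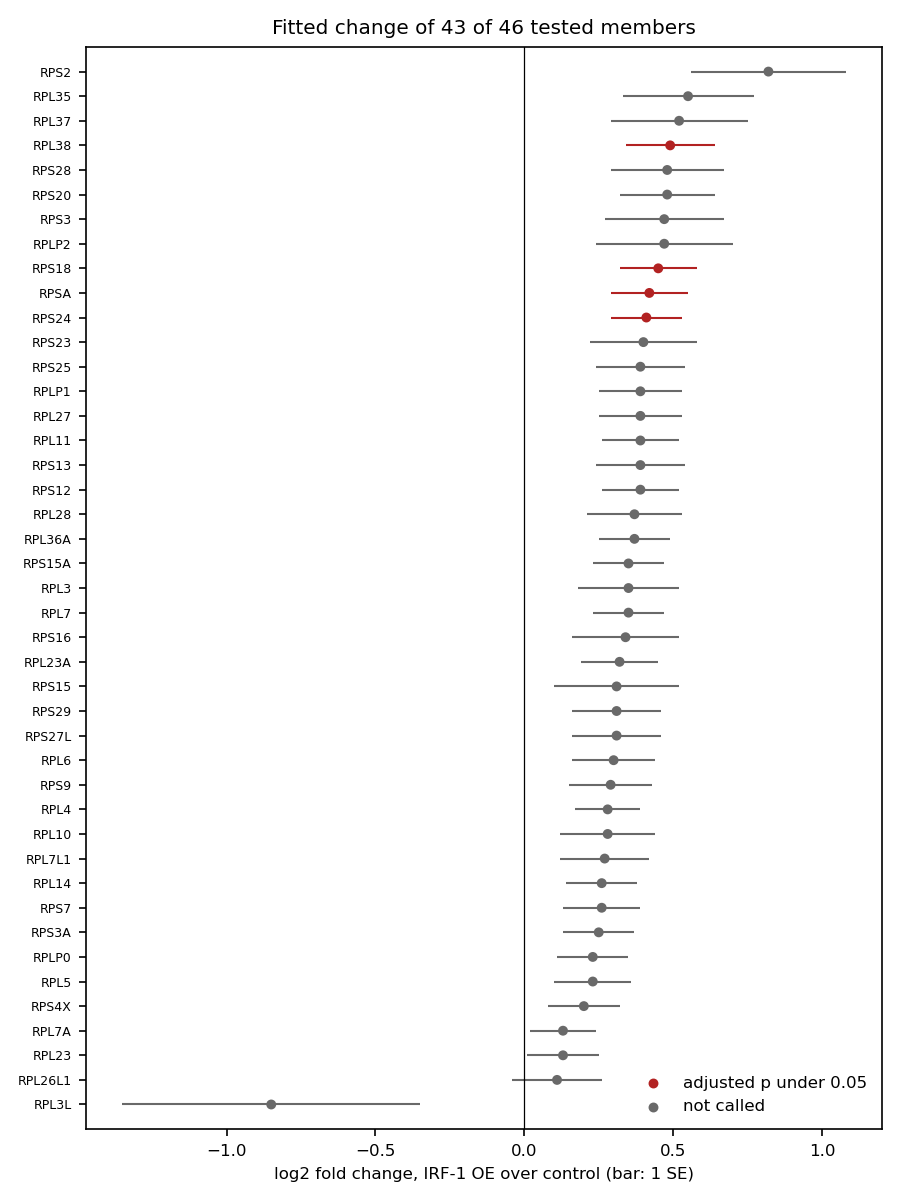
Fitted log2 fold change, overexpression over control (x axis, bars 1 SE), of 43 of the 46 tested members, in order of size, with the 4 called members in red. Apart from RPL3L at -0.85, the points run from 0.11 for RPL26L1 to 0.82 for RPS2, and several members with larger values than the called ones have longer bars.

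RPS24, a small subunit protein needed to process the rRNA precursor, had 1372 CPM in DW.1, 1322 in DW.3, 1050 in DW.6 and 975 in DW.8. The overexpression libraries were both above the controls, and the controls were close to each other. Its log2 fold change was 0.41 ± 0.12 (SE) with adjusted p = 0.0378 (edgeR). The gene (ENSSSCG00000039544) lies on chromosome 14 from 80473928 to 80481209, on the plus strand.

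RPS18, a protein of the small subunit head, had 1849, 1867, 1487 and 1237 CPM in DW.1, DW.3, DW.6 and DW.8. It was high in both overexpression libraries, lower in DW.6 and lowest in DW.8, with a log2 fold change of 0.45 ± 0.13 (SE) and adjusted p = 0.0404 (edgeR). It lies on chromosome 7 from 29638833 to 29642912, where 48 of its 544 exon bases are shared with VPS52 on the other strand.

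RPSA, a small subunit protein also known as the laminin receptor, had 2744, 2846, 2271 and 1917 CPM in the same order. The groups did not overlap, and its log2 fold change was 0.42 ± 0.13 (SE) with adjusted p = 0.0482 (edgeR). It lies on chromosome 13 from 24072510 to 24083686 and shares no exon base with another row.

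RPL38 was the large subunit member that passed the test, a small protein known for its part in the translation of Hox mRNAs in mouse embryos. It had 353, 363, 282 and 229 CPM in DW.1, DW.3, DW.6 and DW.8, again high in both overexpression libraries and lowest in DW.8. Its log2 fold change was 0.49 ± 0.15 (SE) with adjusted p = 0.0407 (edgeR). It lies on chromosome 12 from 6883947 to 6898764. Without DW.8 its adjusted p was 0.0577, so the call was lost, whereas RPS24, RPS18 and RPSA passed with adjusted p of 0.029, 0.0372 and 0.0421. Without DW.1 none of the 4 passed (adjusted p from 0.184 to 0.252), nor without DW.3 (0.165 to 0.219), while their log2 fold changes were 0.40 to 0.52 and 0.40 to 0.47.

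Among the 17 tested large subunit members 1 (5.88%) was called higher and 0 lower, beside 13.9% and 15.5% of all genes, with a median log2 change of 0.35 (0.20 without DW.8). Without DW.6 15 were called higher, and 0 with any other library left out (at an unadjusted p under 0.05 1 without DW.1, 0 without DW.3 and 5 without DW.8). All 17 had both overexpression libraries above both controls, beside 34.8% of all genes. Values ran from 0.13 ± 0.11 (SE) for RPL7A to 0.55 ± 0.22 (SE) for RPL35, which sits at the exit of the nascent peptide tunnel. RPL35 had 1642, 1759, 1448 and 872 CPM in DW.1, DW.3, DW.6 and DW.8, so the spread between the controls was wider than the gap from DW.6 to the overexpression libraries. Its adjusted p was 0.102 (edgeR).

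RPL5 and RPL11 bind the 5S rRNA and, outside the ribosome, the p53 regulator MDM2. RPL5 had 1890, 2027, 1774 and 1562 CPM in the same order, a log2 fold change of 0.23 ± 0.13 (SE) that did not pass (adjusted p = 0.215, edgeR). RPL11 had 1093, 1111, 908 and 778 CPM and a log2 fold change of 0.39 ± 0.13 (SE), also short of the threshold (adjusted p = 0.0619, edgeR). For both genes the groups did not overlap, and without DW.6 both were called.

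A list of 9 proteins covered the peptide tunnel and its exit (RPL4, RPL17, RPL19, RPL22, RPL23A, RPL26, RPL31, RPL35 and RPL39, members and genes placed by position alike). Of these 0 were called by edgeR, 2 by DESeq2 and 0 by limma-voom. Of all genes 13.9%, 13% and 14% were called higher. At an unadjusted p under 0.05 edgeR gave 4 of the 9, beside 19.5% of all genes higher. Their median log2 change was 0.28, 0.19 without DW.8 and 0.39 without DW.6. Both overexpression libraries were above both controls in each of the 9, beside 34.8% of all genes. RPL3, which reaches toward the peptidyl transferase center, had 1271, 1350, 1183 and 866 CPM and a log2 fold change of 0.35 ± 0.17 (SE). RPL7 had 2166, 2244, 1811 and 1658 CPM, with 0.35 ± 0.12 (SE). RPL10, placed last in subunit maturation, had 2319, 2354, 2215 and 1644 CPM, with 0.28 ± 0.16 (SE). In RPL3 and RPL10, unlike RPL7, DW.6 was nearer to the overexpression libraries than to DW.8. Without DW.8 the log2 fold change was 0.16 for RPL3 and 0.09 for RPL10, and without DW.6 it was 0.60 and 0.51.

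The P stalk, on which RPLP0 carries dimers of RPLP1 and RPLP2, recruits the elongation factors. RPLP0 had 4240, 4162, 3698 and 3465 CPM in DW.1, DW.3, DW.6 and DW.8, and a log2 fold change of 0.23 ± 0.12 (SE). RPLP1 had 2717, 2697, 2271 and 1871 CPM, with 0.39 ± 0.14 (SE). RPLP2 had 1385, 1480, 1301 and 763 CPM, with 0.47 ± 0.23 (SE). The 3 genes had the same order of groups, and none passed the test (adjusted p 0.179, 0.0684 and 0.165, edgeR). Of the 3, RPLP2 had the widest spread between controls, and its log2 fold change was 0.15 without DW.8, under RPLP1 (0.26) and RPLP0 (0.19). Without DW.6 all 3 were called (adjusted p 0.048 for RPLP0, 0.00288 for RPLP1 and 0.000262 for RPLP2, edgeR). At an unadjusted p under 0.05 edgeR gave 1 of them, and DESeq2 and limma-voom gave 2 each but called 0. The shares of all genes higher at that threshold were 19.5%, 13.7% and 20%.

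Among the 22 tested small subunit members 3 (13.6%) were called higher and 0 lower, beside 13.9% and 15.5% of all genes, with a median log2 fold change of 0.39, 0.24 without DW.8 and 0.58 without DW.6. Without DW.6 17 were called higher and without DW.8 5, and without DW.1 or DW.3 0 (3 and 1 at an unadjusted p under 0.05). In 19 of them both overexpression libraries were above both controls, beside 34.8% of all genes. RPS15, in which the groups overlapped, had 1448, 1613, 1508 and 958 CPM, so DW.6 was level with the overexpression libraries and DW.8 was low.

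Of 8 proteins along the mRNA channel (among them RPS2, RPS3 and RPS28, also of both kinds) 0 were called by edgeR, DESeq2 or limma-voom, each with 3 at an unadjusted p under 0.05. Of all genes 13.9%, 13% and 14% were called higher, and 19.5%, 13.7% and 20% were higher at an unadjusted p under 0.05. The median log2 change of the 8 proteins was 0.38, 0.61 without DW.6 and 0.18 without DW.8. The highest of the 8 values were 0.82 for RPS2 and 0.61 for RPS14 (0.01 without DW.8). Both rows were low, with means of 7.84 and 7.2 CPM, and share exon bases with other rows. The median thus includes rows of uncertain level. RPS3A had 2287, 2251, 1838 and 1975 CPM, so the groups were apart and DW.8 was the higher control, and its log2 fold change was 0.25 ± 0.12 (SE). RPS28 had 563, 550, 477 and 321 CPM, with 0.48 ± 0.19 (SE). RPS16 had 1258, 1282, 1192 and 815 CPM, with 0.34 ± 0.18 (SE). In RPS16 and RPS28 DW.8 was low and DW.6 was near the overexpression libraries. Without DW.8 their log2 fold changes were 0.10 and 0.23, and without DW.6 they were 0.64 and 0.79.

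Levels of members were compared with each other as CPM per kilobase of exon length, and 46 of 50 members had a count in every library. Their median was 700, and 41 of them lay above 100, an 18.3-fold range. RPS18 stood highest in each library, with a mean of 2959 ± 559 (SD, n = 4 libraries), followed by RPS16 (2005 ± 384), RPL11 (1811 ± 296), RPLP0 (1771 ± 169), RPS3A (1531 ± 159) and RPS28 (1469 ± 342). RPS16 and RPL11, RPL11 and RPLP0, and RPS3A and RPS28 were neighbors in this order that differed by less than their SD over the 4 libraries. The order is that of means over both groups and not of each library: in DW.8, for example, RPS16 (1438) was under RPLP0 (1577), RPL11 (1448) and RPS3A (1448). At the other end came RPS29 (162 ± 24.5), RPL26L1 (95.5 ± 9.09), RPL7L1 (38.0 ± 4.99), RPS27L (24.1 ± 3.39), RPS2 (1.34 ± 0.443) and RPL3L (0.453 ± 0.153). Exon length here is the union over all annotated transcripts, so a gene with long rare exons ranks lower than its mRNA would. Among the 100 rows of the table with the highest level on this scale, 29 were members.

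The paralogs, gene copies with narrow or unknown use, were at the low end. RPL3L, the muscle form of RPL3, had 12, 13, 15 and 18 counts in DW.1, DW.3, DW.6 and DW.8. It was the member with a negative fitted value, a log2 fold change of -0.85 ± 0.50 (SE) with adjusted p = 0.245 (edgeR). RPL10L, the testis form of RPL10, had 0 counts in each library, which allows up to 0.121, 0.144, 0.192 and 0.171 CPM (3 counts).

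RPL7L1 had 160, 176, 128 and 152 CPM, and RPS27L, a p53 target related to RPS27, had 124, 119, 107 and 89.5. RPL26L1 had 78.8, 81.8, 66.5 and 82.2 CPM, so DW.8 was as high as the overexpression libraries, and without DW.6 its log2 fold change turned from 0.11 to -0.04. None of these 3 was called. RPL36AL, outside the 50 members and the 26 placed genes, which shares 914 of 1807 exon bases with MGAT2, had 217, 206, 172 and 161 CPM and was not called (adjusted p = 0.0885, edgeR), while its parent RPL36A had 700, 687, 556 and 515 CPM (adjusted p = 0.0568).

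RPL22L1 differed from this. Its row was placed by RefSeq position on chromosome 13 from 109495888 to 109500225, and it is the paralog of RPL22, a large subunit protein that can repress the paralog's mRNA. It had 171, 152, 75.3 and 48.1 CPM in DW.1, DW.3, DW.6 and DW.8, so the overexpression libraries were well above both controls. It rose with a log2 fold change of 1.39 ± 0.22 (SE) and adjusted p = 0.00329 (edgeR), and passed the test with each library left out (log2 fold change 1.11 to 1.75). RPL22 itself had 567, 601, 566 and 445 CPM and a log2 fold change of 0.21 ± 0.15 (SE), short of the threshold. Its log2 fold change was 0.05 without DW.8 and 0.39 without DW.6. Of 7 paralogs with a row 6 were tested, and RPL22L1 was the 1 called (16.7%), beside 13.9% of all genes.

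A few members had almost no counts although the ribosome needs them, and they are genes that overlap another row. RPL29 had 0 counts in every library, and 677 of its 677 exon bases, on chromosome 13 from 34119539 to 34121859, are shared with ACY1 on the other strand. RPS27A, which is made fused to ubiquitin, also had 0, and 1326 of its 1326 exon bases on chromosome 3 (85988868 to 85992235) are shared with MTIF2 on the other strand. RPS21 had 4, 1, 0 and 0 counts, with 312 of 382 exon bases shared with CABLES2 on the other strand.

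Of the 50 members, 32 share no exon base with another row, 16 share some and 2 share all. Both that share all were at 0, and of the 32 that share none RPL10L alone was. Whether counting used strand is not given in the sources used here. The counting program by default leaves out reads on bases that belong to more than 1 row, and under that default a row with all bases shared can gather no counts, so the levels of RPL29 and RPS27A are unknown and those of partly shared members uncertain. ACY1 had 12.2, 10.8, 13.9 and 11.8 CPM and MTIF2 75.9, 68.8, 53.2 and 69.2, far under the level of a typical member.

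RPS2, a protein at the mRNA entry, had 269, 191, 90 and 98 counts, or 10.8, 9.18, 5.76 and 5.6 CPM. Its overexpression libraries were both higher, its log2 fold change of 0.82 ± 0.26 (SE) was the highest among members, and it fell short of the threshold (adjusted p = 0.0522, edgeR). It shares 1867 of 5835 exon bases with neighbors that include TBL3 and NDUFB10, and its level is far below that of its partners in the subunit. Near-identical copies elsewhere in the genome can also take or lose reads of ribosomal protein genes, which these counts cannot show.

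The 26 genes placed by position were all tested, 2 (7.69%) were called higher and 0 lower, beside 13.9% and 15.5% of all genes, and 26 of 26 had a fitted log2 fold change above 0, beside 49.9%. Their median was 0.29, and 0.13 without DW.8, and the difference from the members was not tested. RPL27A, named since it is the other call, had 1687, 1661, 1331 and 1046 CPM and a log2 fold change of 0.49 ± 0.15 (SE) with adjusted p = 0.0389 (edgeR). Members and placed genes together held 9.98%, 10.2%, 8.77% and 7.61% of counts in DW.1, DW.3, DW.6 and DW.8. The placed genes too were lower in DW.8 than in DW.6, 24 of 26 with a median log2 difference of -0.35, and without DW.6 18 of them were called higher and without DW.8 2. Without DW.1 or without DW.3 the call of RPL27A was lost, while its log2 fold change was 0.50 and 0.51.

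RPS6, the substrate of the S6 kinases, had 2358, 2487, 2260 and 2123 CPM, and RPS19, the gene most often mutated in Diamond-Blackfan anemia, had 2174, 2259, 2098 and 1515. Their log2 fold changes were 0.14 ± 0.12 (SE) and 0.29 ± 0.17 (SE), and neither passed the test. For RPS19 the value was 0.09 without DW.8 and 0.55 without DW.6. RPL39, at the end of the peptide tunnel, had 485, 499, 408 and 249 CPM, with 0.58 ± 0.22 (SE) and adjusted p = 0.0868 (edgeR). Its log2 fold change was 0.28 without DW.8 and 0.98 without DW.6. RPL26 had 1185, 1171, 1083 and 1110 CPM, with 0.10 ± 0.12 (SE), so in contrast to RPL39 its controls were level.

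RPL10A, RPS14 and the row placed as RPL13A had under 10 CPM. RPL10A shares 676 of 968 exon bases with FANCE and RPS14 shares 420 of 661 with CD74. The row placed as RPL13A had 8.49, 9.13, 8.76 and 7.14 CPM with no shared base, and is counted among the 26. RefSeq places RPL13A on chromosome 6 from 54551772 to 54568752 and lists FLT3LG as another name for it, while the table splits that stretch into a row at 54552624 to 54563806 and a row at 54564818 to 54572616 whose Ensembl symbol is FLT3LG. The row named FLT3LG, looked up after the values were seen, had 2744, 2758, 2686 and 1681 CPM, a level like that of the members, and was likewise lower in DW.8 than in DW.6, by a log2 difference of -0.68. Which of the rows holds RPL13A reads was not tested.

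Genes that work beside the ribosomal proteins were examined from lists. Ribosome biogenesis factors, which process rRNA and assemble subunits, had 40 of 127 tested genes called higher, or 31.5%, beside 13.9% of all genes. Called lower were 0 (1 at an unadjusted p under 0.05), beside 15.5%. With both controls kept, their median log2 change was 0.39, close to that of the members. DDX31, an RNA helicase of the nucleolus, had 106, 103, 47.1 and 56.6 CPM (log2 fold change 1.01 ± 0.15 SE, adjusted p = 0.00255, edgeR), and RCL1, a pre-rRNA processing protein, 70.6, 70.4, 31.7 and 39.4 (0.99 ± 0.16 SE, adjusted p = 0.00365, edgeR). Both rose. The most abundant, NPM1 and NCL, had log2 fold changes of 0.24 ± 0.12 (SE) and 0.34 ± 0.14 (SE) and did not pass. In contrast to the ribosomal proteins, the biogenesis genes were higher in DW.8 than in DW.6, with a median log2 difference of 0.26. Without DW.8 72 were called higher and without DW.6 36, beside 15.3% and 14.8% of all genes in those fits. Fewer of the 127 were called without DW.1 or DW.3, a share no higher than that of all genes there. In those fits the overexpression group held 1 library and its own spread was not measured, so fewer calls do not show a smaller change. The median log2 change was 0.38 without DW.1 and 0.39 without DW.3, about as large as with all libraries. It was 0.53 without DW.8 and 0.26 without DW.6, where the members had 0.23 and 0.50. The medians of biogenesis genes and members were thus close only where both controls were kept.

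RNA polymerase I and its factors, which transcribe the rRNA precursor, had 5 of 15 called higher (33.3%) and 0 lower, beside 13.9% and 15.5% of all genes, with a median of 0.41. TAF1A had 118, 96, 34 and 32 counts (log2 fold change 1.22 ± 0.35 SE), with 4457 exon bases shared with HHIPL2 and MIA3, and POLR1G had 36.5, 38.4, 20.4 and 26.4 CPM (0.68 ± 0.19 SE). The genes of the list with the highest means, TAF1D and UBTF, were not called (0.01 ± 0.13 and 0.40 ± 0.14 SE). The number called by edgeR changed with the library left out, and the calls were lost without DW.1 or without DW.3. Both DESeq2 and limma-voom called 5 with all libraries. The median log2 change was 0.46 without DW.1, 0.37 without DW.3, 0.34 without DW.6 and 0.47 without DW.8.

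Translation factors that share the pyrimidine tract start had 0 of 15 called in either direction by edgeR, DESeq2 or limma-voom. By edgeR 13.9% of all genes were called higher and 15.5% lower. At an unadjusted p under 0.05 the 3 tools gave 0, 0 and 1 of the 15 higher and 0 lower. Their median was 0.15, or 0.08 without DW.8. EEF2 had 7848, 7408, 7444 and 6201 CPM and EEF1G 3091, 3217, 2823 and 2260, with log2 fold changes of 0.16 ± 0.13 (SE) and 0.31 ± 0.14 (SE). Without DW.6 the median of the 15 was 0.20. FAU, made as a ubiquitin-like fusion, and RACK1, a scaffold on the small subunit, were at 0.31 ± 0.21 (SE) and 0.30 ± 0.12 (SE) and were not called. These groups thus held fold changes at or under the median of the members.

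Regulators of mTORC1 and of cap binding had 3 of 18 called higher (16.7%) and 0 lower, beside 13.9% and 15.5% of all genes, with a median of 0.20, or 0.35 without DW.8 and 0.12 without DW.6. EEF2K, the kinase that inhibits elongation factor 2, had 52.6, 44.3, 24.9 and 23.1 CPM (log2 fold change 1.01 ± 0.17 SE, adjusted p = 0.00419, edgeR), and EIF4EBP1, a repressor of cap binding, 92.6, 89.4, 61.5 and 39.4 (0.85 ± 0.21 SE, adjusted p = 0.0202, edgeR). EIF4A1 and EIF4G1, the most abundant, were not called (-0.02 ± 0.12 and 0.26 ± 0.14 SE). The median of the list was 0.23 without DW.1 and 0.20 without DW.3. The number called changed with the library left out, and without DW.6 the calls were no longer all higher.

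Mitochondrial ribosomal proteins, which serve a separate ribosome, had 11 of 70 called higher, or 15.7%, near the 13.9% of all genes, and 0 lower, with a median of 0.29. MRPS18B had 71.0, 68.7, 43.8 and 42.3 CPM and MRPS33 43.0, 43.1, 24.1 and 31.1, with log2 fold changes of 0.70 ± 0.14 (SE) and 0.64 ± 0.18 (SE). MRPL12 and MRPL37, the most abundant, were at 0.21 ± 0.13 (SE) and 0.47 ± 0.14 (SE), and MRPL37 passed the test. DESeq2 called 7 and limma-voom 12. The median was 0.31 without DW.1 and 0.27 without DW.3. It was 0.31 without DW.6 and 0.25 without DW.8. The number called changed with the library left out, and the calls were lost without DW.1.

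Other abundant or short genes, chosen as a comparison after the values were seen, gave the following. The 66 tested genes outside the ribosomal proteins with a mean of at least 1000 CPM had a median log2 fold change of 0.16 with 45 above 0, and a median log2 difference of -0.03 between DW.8 and DW.6. The 229 with at least 100 CPM and under 2000 exon bases had medians of 0.16 and -0.12. Both medians of the members, 0.35 and -0.27, were farther from 0, and this difference was not tested.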

How the data were processed

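RNA-seq counts of 4 libraries, 2 per group, were used. The authors deposited counts per gene, with exon length (column Length, in bases, of another kind than the counts) beside them. Per the submitters' processing notes reads were aligned with HISAT2 2.0.4 to Sscrofa11.1 and counted with featureCounts 1.6.4. The ChIP-seq samples of the series were not used here. From the counts, edgeR 4.0.16 (R 4.3.3) was run with TMM factors, its default filter on low counts by group, quasi-likelihood tests and Benjamini-Hochberg adjustment over 13250 genes, called at 0.05. DESeq2 1.42.0 and limma-voom (limma 3.58.1) were alternatives, with other scalings, filters and left-out libraries. SE is the log2 fold change over the root of the F statistic. The steps were tested on simulated data. CPM used library total times TMM factor, and the floor is 3 counts. Intervals and floors cover counting error only.

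Symbols came from Ensembl for 14692 of 24358 rows, and rows without one were placed by RefSeq span (50% reciprocal overlap). Related genes came from lists of paralogs, tunnel, 5S, P stalk and mRNA channel proteins, ubiquitin fusions with RACK1, translation factors, biogenesis factors, RNA polymerase I, mitochondrial ribosomal proteins, mTORC1 and cap regulators, and pluripotent and fibroblast markers. The members and lists were chosen with earlier results of these data known. Genes named are IRF1, the 6 highest and 6 lowest members by level, members at 3 counts or fewer, called members, paralogs with their parents, 9 fixed genes (RPL5, RPL11, RPLP0, RPLP1, RPLP2, RPS6, RPS19, RPL13A, RPSA), per list the 2 most abundant and the 2 called genes with the largest change, and the ends of ranges. Others are named as chosen after values were seen, among them RPS15 and RPL27A, and the genes that overlap members. Promoter and protein features of members were planned and are not analysed here. Some members enter the counts and medians but are not reported here by name.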

Additional observations from a re-analysis of the deposited data

How the results depend on the processing

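The count of members called higher, 4, became 7 with library totals alone, 24 with no filter on low counts, 7 with DESeq2, 7 with limma-voom and 0 with a log2 fold change of at least 1. Leaving out 1 library at a time gave 0 to 36 members higher and 0 lower throughout. The median log2 fold change of members stayed at 0.33 to 0.37 under the other scalings, filters, tools and member lists, and at 0.23 to 0.50 with a library left out. Its interquartile range was 0.14 to 0.31 with a library left out, 0.31 without control DW.6. The difference in share was 0.973 to 1.74 points with a library left out and 1.35 to 1.91 under the other settings, among them members plus the genes placed by position, a setting chosen after seeing the data, with which 6 were called. The log2 fold change of IRF1 was 6.31 to 6.62.

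Signs turned for genes near 0, none of them called: RPL26L1 without DW.6 (leave-one-out range -0.04 to 0.28), RPL10A without DW.3 (-0.14 to 0.25), TAF1D with library totals alone (0.00) and without DW.1 (-0.04) or DW.8 (-0.06 to 0.08), and EIF4A1 with no filter (0.00) and without DW.1 or DW.6 (-0.08 to 0.06). Of 635 values for named genes under alternatives, 565 kept sign and side of the threshold. The cause of these shifts was not tested beyond fewer libraries or genes. No paired analysis was possible because the groups share no replicate number. The groups held 2 libraries each and the controls were unequal, and the size of difference that the test can call was not measured. Library order, culture and group cannot be told apart.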
